A study of Mus musculus with 4 samples.

Results

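The genes described here are 10 genes of the extracellular matrix and of mesenchymal cells: Col1a1, Col1a2, Col3a1, Col5a1, Col6a1, Col6a2, Thy1, Pcolce, Tagln and Postn. Members were found by gene symbol in the platform annotation, which gave 18 probe sets for the 10 genes, of 34945 probe sets for 18193 genes that carry a single symbol. The cells were primary keratinocytes, the epithelial cells of the epidermis, taken from newborn C57BL/6 mice and cultured. There were 4 groups of 1 expression array each: WT cells without irradiation, WT cells 4 h after ultraviolet B (UVB) at 75 mJ/cm2, p38a-KO cells without irradiation and p38a-KO cells 4 h after the same UVB dose. No agent other than UVB is named, and the labels name neither the allele, nor a Cre line or its promoter, nor how many animals gave each culture. The KO samples also carry the code K14C, which the labels do not explain. Of 5 probe sets of Mapk14, the gene of p38alpha, whose mean signal reached the floor defined below, 4 read higher in the unirradiated KO-labelled array than in the WT array. Which part of Mapk14 was deleted is not known here, so these signals cannot decide whether the gene was lost. Most genes at or above that floor read higher on the same array too, with a median log2 difference of 0.16. The name KO-labelled is used because the arrays do not settle this, and each genotype direction rests on the label.

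Fibrillar collagens are the rope-like proteins of the dermis. Type I collagen is built from the chains encoded by Col1a1 and Col1a2, type III from Col3a1, and type V, which lies inside type I fibrils and limits their diameter, from Col5a1 and its partners. Type VI collagen, from Col6a1, Col6a2 and other chains, forms beaded filaments around cells. Procollagens are secreted as precursors whose ends are cut off outside the cell, and the Pcolce protein enhances removal of the C-terminal propeptide. Postn encodes periostin, a matricellular protein that binds collagen. Thy1 encodes a surface glycoprotein much used to sort dermal fibroblasts, also found on T cells and neurons, and Tagln encodes transgelin, an actin-binding protein of smooth muscle and of contractile fibroblasts. In skin these products come mainly from dermal fibroblasts, while keratinocytes rest on a basement membrane of type IV, VII and XVII collagens.

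Regulatory sequence upstream of the members is shown first, since their signals differed together between the genotypes. RefSeq promoters of build GRCm38.p6 were found for 7 of the 10 genes, and those of Col1a1, Thy1 and Tagln were not used here. The 130 bases before the annotated start of 4 members follow, 5′ to 3′ on the gene's own strand, with matches to the searched motifs in capitals on either strand. They are Col1a2 at chr6:4505488-4505617 (+), Col3a1 at chr1:45311408-45311537 (+), Col6a1 at chr10:76726045-76726174 (-) and Pcolce at chr5:137611405-137611534 (-).
Col1a2: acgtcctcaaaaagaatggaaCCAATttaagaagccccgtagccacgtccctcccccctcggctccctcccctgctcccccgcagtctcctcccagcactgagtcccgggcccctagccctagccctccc
Col3a1: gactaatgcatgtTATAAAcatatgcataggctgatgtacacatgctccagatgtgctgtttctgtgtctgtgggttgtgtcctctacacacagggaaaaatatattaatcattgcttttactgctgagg
Col6a1: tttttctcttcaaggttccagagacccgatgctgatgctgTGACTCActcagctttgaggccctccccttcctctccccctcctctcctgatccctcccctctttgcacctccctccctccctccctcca
Pcolce: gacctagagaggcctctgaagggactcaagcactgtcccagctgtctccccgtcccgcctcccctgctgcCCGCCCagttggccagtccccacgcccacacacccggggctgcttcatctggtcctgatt

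No searched motif was shared between the 4 printed stretches. These are a choice from 9 member promoters, so this says nothing about the members as a set. Col1a2 and Pcolce both held a GC box in the longer window searched. The search covered 250 bases before each start on both strands. The motifs were the CCAAT box, which is spelled by its name, the TATA box with the letters TATAAA, the GC box with the letters GGGCGG, the AP-1 site with the letters TGANTCA, where N is any base, and a Snail-type E-box with the letters CACCTG. No searched motif overlapped another in the 4 stretches. Col1a2 held a CCAAT box 109 bases before the start, Col3a1 a TATA box 117 bases before it, Col6a1 an AP-1 site 90 bases before it and Pcolce a GC box 60 bases before it. Of 32851 mouse promoters searched the same way, 33.8% held a CCAAT box, 12.4% a TATA box, 32.7% a GC box, 6.75% an AP-1 site and 17.2% the E-box. GC boxes also occurred upstream of Col1a2, Col5a1 and Col6a2. The nearest of Col5a1 and of Col6a2 lay 73 and 11 bases before a start, so they share this motif with Pcolce within 130 bases. The E-box occurred 238 bases before the start of Pcolce. A TATA box, as in Col3a1, occurred 26 bases before 1 of the 2 annotated starts of Postn. A match is a description of the letters in this window. Col6a1 and Col6a2 are neighbouring protein-coding genes on chromosome 10, and Col3a1 neighbours Col5a2 on chromosome 1.

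Signal is the deposited MAS5 intensity of a probe set, on a linear scale. For each gene the brightest probe set, by its mean over the 4 arrays, stands for the gene, and the brightness of different probe sets is not compared, since it also depends on the probes. A floor of 24.9 units, the median of the mean signal over all probe sets, was used, and lower values were raised to it before folds were taken. The mean signal of all 10 genes and of 17 of their 18 probe sets reached the floor, as did that of 11379 of the 18193 genes. The remaining probe set, the dimmest of 3 for Col1a2, read at 0.423 to 15.2 units, below the floor on every array. The median signal per array was 30.3 units in WT and 34.5 in KO-labelled unirradiated cells, and 18.7 in both after UVB, and over the 11379 genes UVB values were lower than unirradiated ones by a median of 0.70 on the log2 scale in WT and 0.82 in KO-labelled cells.

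Without irradiation, signal of all 10 genes was higher in KO-labelled than in WT cells. All 10 were also above the median of all genes tested. The 25th percentile of all genes was -0.016 on the log2 scale, so most genes were above 0 too. The difference was at least 2-fold for 6 of 10, namely Tagln, Pcolce, Thy1, Col1a2, Col6a2 and Col1a1. Of all genes tested, 1.63% showed such an excess in KO-labelled cells and 0.729% a deficit of that size, which 0 members had. The median log2 difference of the members was 1.15 against 0.16 for all 11379 genes. With 1 array a group these differences have no replicate check. The members were chosen with earlier results of these arrays known, so their counts describe the arrays and are no independent evidence of a direction. In a mixed culture, fewer cells of a type and less RNA per cell cannot be told apart.

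**Figure D1:**
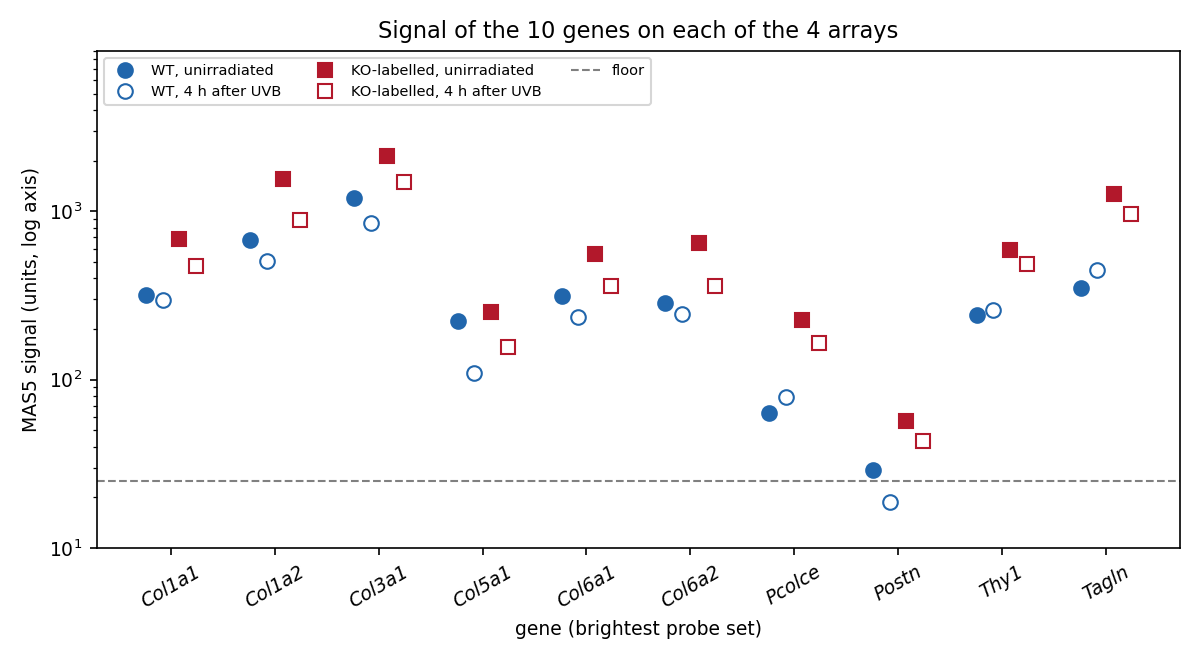
MAS5 signal (log axis) of the brightest probe set of each of the 10 genes on each of the 4 arrays; filled symbols are unirradiated cells, open symbols cells 4 h after UVB, blue circles WT, red squares KO-labelled, and the dashed line is the floor. For 9 genes both KO-labelled arrays lie above both WT arrays, and for Col5a1 the irradiated KO-labelled array lies below the unirradiated WT array.

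Among the fibrillar collagens, Col1a1 in WT cells read 319.96 units without and 296.99 with UVB, against 686.2 and 474.8 in KO-labelled cells. Both KO-labelled arrays were above both WT arrays, by 2.14-fold without irradiation and 1.599-fold after UVB. Col1a2, the second chain of type I collagen, read 678.0 and 508.1 units in WT and 1562 and 886.2 in KO-labelled cells, each pair being without and then with UVB. The groups did not overlap, with folds of 2.30 and 1.74. Col3a1 read 1197 and 848.6 units in WT and 2126 and 1489 in KO-labelled cells, and its genotype fold was nearly the same in both conditions, at 1.78 and 1.75.

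Col5a1 was the member with the smallest genotype difference by its brightest probe set. WT cells read 223.1 units without and 109.9 with UVB, and KO-labelled cells 252.6 and 157.1, so that the genotypes overlapped. The KO-labelled fold was 1.13 without irradiation and 1.43 after UVB. The choice of probe set decides this value: a second probe set had almost the same mean signal, 185.5 units against 185.7, and read 156.0 and 103.1 units in WT and 319.8 and 163.2 in KO-labelled cells. By that one the unirradiated KO-labelled cells were 2.05-fold higher and no array overlapped. The third, dimmer one gave 1.49-fold.

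Both type VI chains were higher in KO-labelled cells. Col6a1 in WT cells read 312.7 units without and 235.7 with UVB, against 556.2 and 359.4 in KO-labelled cells, which is 1.78-fold and 1.52-fold without and with UVB. Col6a2 read 284.1 and 245.8 units in WT and 650.9 and 361.5 in KO-labelled cells. Its fold of 2.29 without irradiation came down to 1.47 after UVB, and the groups still did not overlap. The other probe set of Col6a2, whose suffix marks possible cross-hybridisation, gave 1.52-fold without irradiation.

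Pcolce, the enhancer of procollagen processing, read 63.6 and 78.9 units in WT cells and 226.5 and 164.8 in KO-labelled cells, again without and then with UVB. Both KO-labelled arrays were far above both WT arrays, at 3.56-fold and 2.09-fold. Its 2 probe sets disagreed on the size: the dimmer one read 73.1 and 47.4 units in WT and 83.6 and 88.0 in KO-labelled cells, a fold of 1.14 without irradiation. Postn, the periostin gene, was dim, at 29.0 and 18.7 units in WT and 56.6 and 43.3 in KO-labelled cells, and only its irradiated WT value was below the floor. Its KO-labelled fold was 1.95 without irradiation and at least 1.74 after UVB, where the deposited values themselves give 2.32.

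The surface and contractile members had some of the largest differences. Thy1 in WT cells read 242.9 units without and 259.5 with UVB, against 592.4 and 485.6 in KO-labelled cells. The lowest KO-labelled value was well above the highest WT value, and the folds were 2.44 and 1.87. Tagln read 350.5 and 448.1 units in WT and 1273 and 968.2 in KO-labelled cells. Its folds were 3.63 and 2.16, and its unirradiated difference, the largest of the 10 genes under the deposited scaling, exceeded that of 99.9% of all genes tested.

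After UVB the genotype difference kept its sign in all 10 genes. Of the 9 genes measured above the floor on every array it was smaller than without irradiation in 8, and larger in Col5a1; Postn has only a bound after UVB. Pcolce and Tagln, 2 of 10 members, were at or above 2-fold, where 1.41% of all genes were that much higher and 1.47%, with 0 members, that much lower. The members' median log2 difference was 0.80 against 0.05 for all genes. At 1.5-fold, 8 members counted, as did 8.14% of all genes. With a floor at the 25th percentile, 9.38 units, Postn reached a log2 difference of 1.21 and 3 members counted at 2-fold, against 4.27% of all genes. Col6a2, Col5a1, Col6a1 and Col1a1 after UVB lay inside the central 95% of all genes, between -0.83 and 0.86, as did Col1a2 and Col3a1. Postn had only a bound of 0.80, so its place is not settled. It lay above the range of each setting at 1.21 against 1.18 with the 25th percentile floor. With quantile normalization this was 1.34 against 0.97, and with median centring 1.11 against 0.89. Without irradiation the central 95% of all genes, as deposited, was -0.62 to 0.91, and Col6a1, Col3a1 and Col5a1 lay inside it. Counted without a fold threshold, both KO-labelled arrays exceeded both WT arrays in 9 of 10 members and in 8.86% of all genes.

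**Figure D2:**
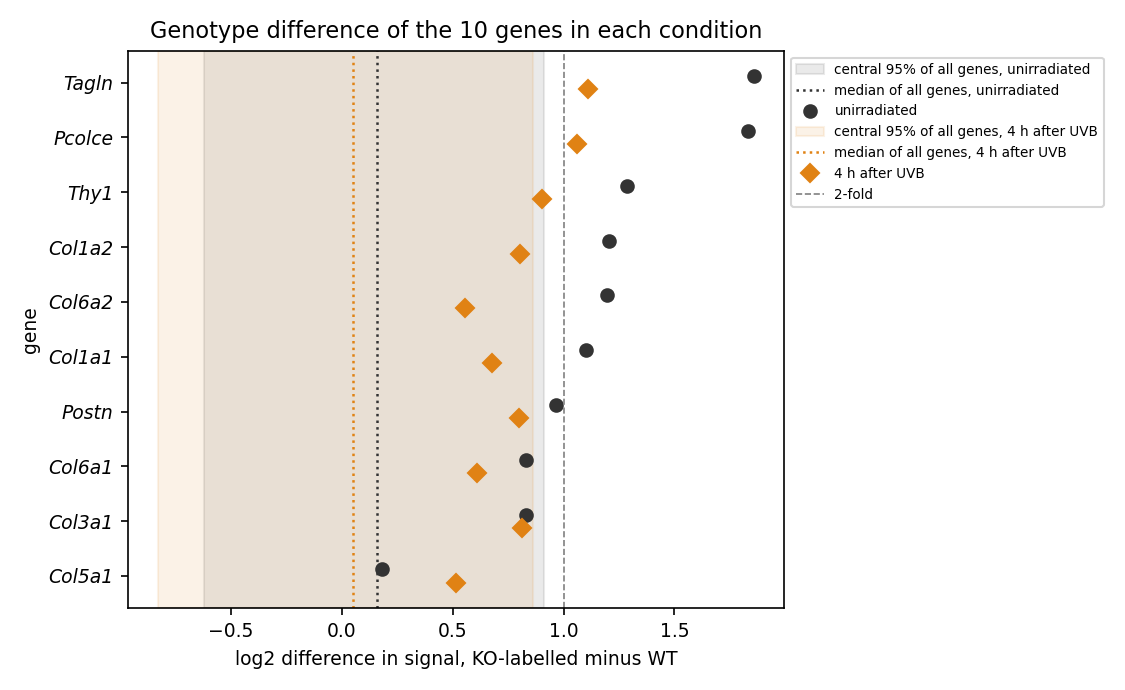
Log2 difference in signal between KO-labelled and WT cells (x axis) for each gene (y axis) without irradiation (black circles) and 4 h after UVB (orange diamonds); shaded bands span the central 95% of the 11379 genes, dotted lines are their medians and the dashed line is 2-fold. All 20 points lie above 0, from 0.18 for Col5a1 to 1.86 for Tagln without irradiation.

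The direction of the genotype difference was shared by the members' other probe sets. All 17 probe sets at or above the floor were higher in KO-labelled cells in both conditions, between 0.18 and 1.86 on the log2 scale without irradiation and between 0.07 and 1.11 after UVB. At least 2-fold were 8 of the 17 without irradiation and 2 after UVB. The share over all probe sets was not counted. By the brightest probe set, 1.63% and 1.41% of all genes were that much higher. The smallest difference after UVB was that of the dimmer Col1a1 probe set, which was 2.57-fold higher in unirradiated KO-labelled cells and read 119.9 against 114.1 units after UVB. Probe sets of 1 gene read the same RNA and are not replicates. Most genes tested were above 0 as well in both conditions.

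**Figure D3:**
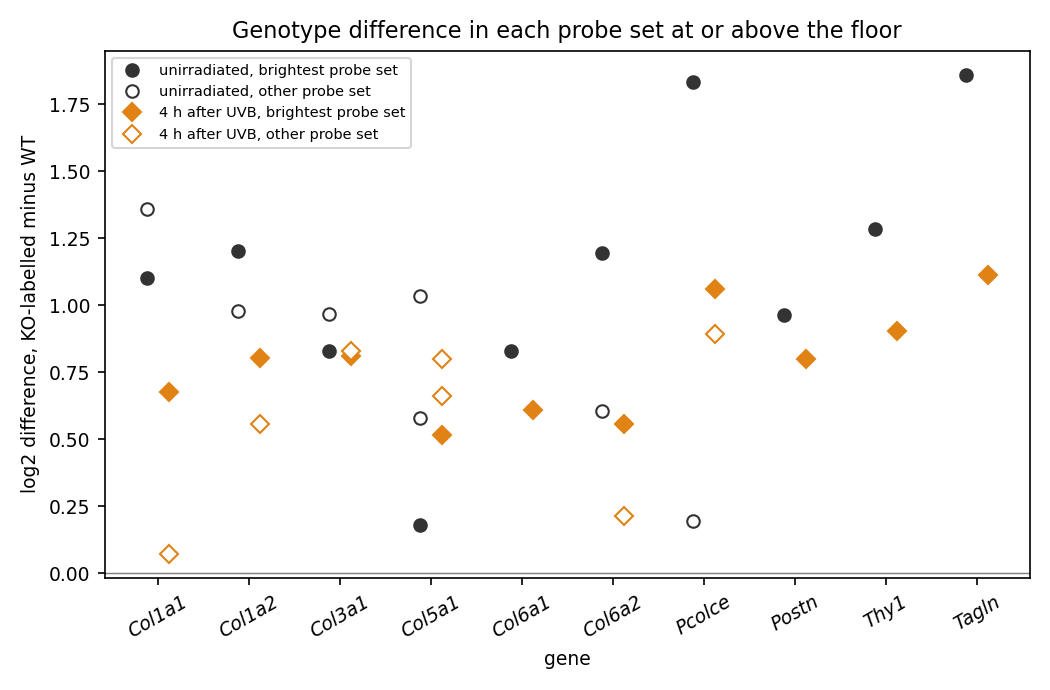
Log2 difference between KO-labelled and WT cells (y axis) for each of the 17 probe sets at or above the floor, by gene (x axis), without irradiation (black circles) and 4 h after UVB (orange diamonds); filled symbols are the brightest probe set of a gene and open symbols the others. No point lies below 0, and without irradiation the probe sets of Pcolce span 0.19 to 1.83, while after UVB those of Col1a1 span 0.07 to 0.68.

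A fit over all 4 arrays gave the only test this design allows. Irradiation and genotype were fitted as additive effects with limma on the 11379 genes, with 1 residual degree of freedom, so that the error is the disagreement between the genotypes' UVB responses, moderated over genes of like signal, and not a spread between cultures. For genotype, 8 of 10 members passed a Benjamini-Hochberg adjusted 0.05 as higher and 0 as lower, where 0.967% of all genes passed as higher and 0.642% as lower. Tagln rose by 1.49 log2 units in KO-labelled cells (SE 0.17, limma adjusted p = 0.00516) and Col3a1 by 0.82 (SE 0.10, limma adjusted p = 0.00635). Col1a2 rose by 1.003, Thy1 by 1.09, Pcolce by 1.45, Col1a1 by 0.89, Col6a2 by 0.88 and Col6a1 by 0.72, with limma adjusted p between 0.00698 and 0.0425. The 2 that did not pass were Postn, whose irradiated WT value entered at the floor, with a difference of 0.88 (SE 0.27, limma adjusted p = 0.152), and Col5a1, with 0.35 (SE 0.17, limma adjusted p = 0.341). These calls depend on the fit: without the intensity trend, with a gene's probe sets averaged, or with genotype as the only factor, limma called 0 members and 0 of the 11379 genes. At an unadjusted p of 0.05, 9 members and 13.4% of all genes passed without the trend, 10 members and 14.7% with probe sets averaged, and 1 member and 0.422% with genotype alone. Quantile normalization left 6 members called, without Col6a1 and Col6a2 (limma adjusted p = 0.0540 and 0.0503), and median centring 7, without Col6a1. Of all genes, 0.768% and 0.725% passed as higher under these 2 scalings. A floor at the 75th percentile left 7 of the 9 members tested, without Pcolce (limma adjusted p = 0.0649), where 3.04% of all genes passed as higher.

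The median response to UVB was smaller for these genes than the array-wide fall. In WT cells the median log2 difference, UVB minus unirradiated, was -0.22 for the members against -0.70 for all genes, and 3 members, Tagln, Pcolce and Thy1, were above 0. Col5a1, at 2.03-fold lower, was the 1 member at least 2-fold lower, in a background of 34.8% of all genes, and 0 members were at least 2-fold higher, in a background of 0.58%. In KO-labelled cells the median was -0.52 against -0.82, all 10 members were below 0, and 0 were at least 2-fold lower or higher, where 39.3% and 0.167% of all genes were. There Col1a2 and Col6a2 lay near the middle of all genes, at percentiles 50.1 and 48.1. With probe sets averaged, the KO-labelled medians were closer, at -0.59 for the members and -0.67 for all genes. Genes with mean signal from 100 to 400 units, the range of 5 members, had a WT median of -0.96 and a KO-labelled median of -1.03, and genes from 400 to 1600 units, the range of 4 others, -0.62 and -0.72. The labels name no mock-treated control at 4 h.

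By the limma fit, 5 members fell after UVB and 0 rose, against 69.4% and 0.703% of all genes. Col5a1 fell by 0.85 (SE 0.17, limma adjusted p = 0.00183), Col1a2 fell by 0.62, Col6a2 fell by 0.53, Col6a1 fell by 0.52 and Col3a1 fell by 0.50. The other 5 did not pass: Col1a1 had a difference of -0.32 (limma adjusted p = 0.0768), Postn -0.30, Thy1 -0.10, Pcolce -0.07 and Tagln -0.02. The direction depends on how the arrays are scaled. After quantile normalization 0 members passed as lower and 5 as higher, where 20.0% and 20.2% of all genes did, and after median centring 0 and 8, where 15.1% and 37.1% did, with members' median UVB responses of 0.59 and 0.76 in WT and 0.28 and 0.61 in KO-labelled cells. Relative to the median of all genes the members' median was higher under each of the 3 scalings, by 0.49, 0.54 and 0.44 in WT and by 0.30, 0.22 and 0.33 in KO-labelled cells.

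**Figure D4:**
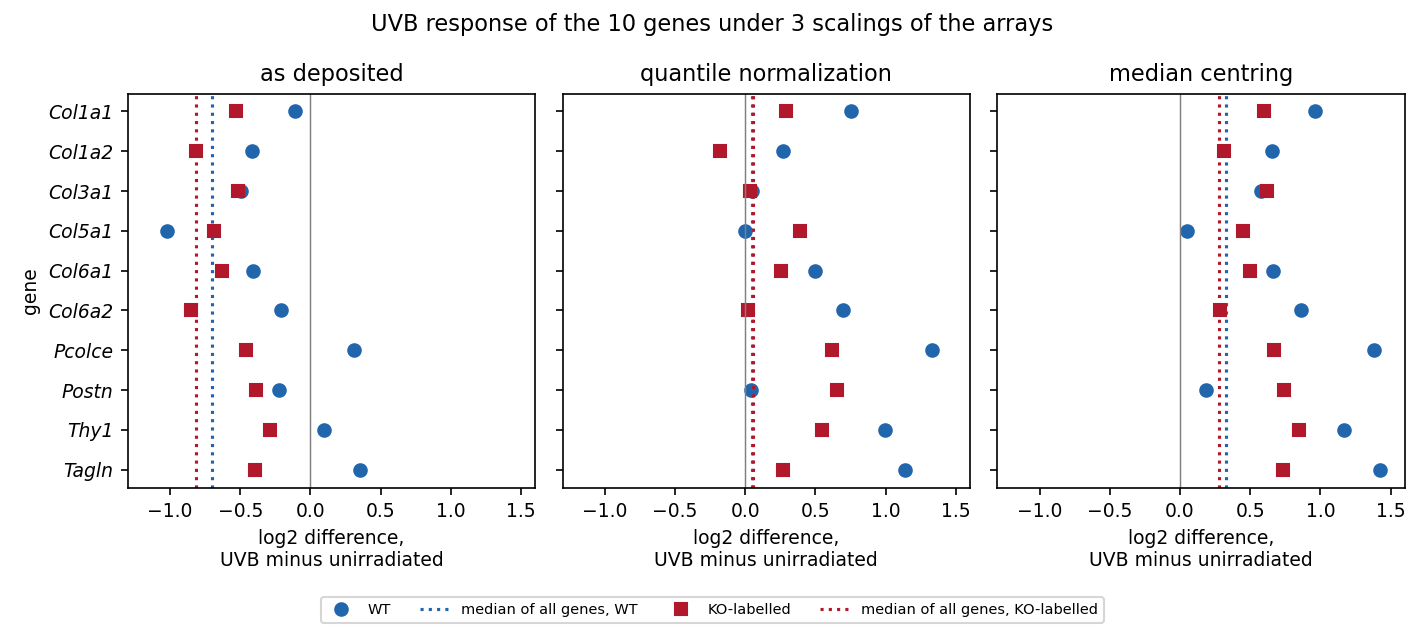
Log2 difference in signal, 4 h after UVB minus unirradiated (x axis), of each gene (y axis) in WT (blue circles) and KO-labelled cells (red squares), with the arrays as deposited (left), quantile-normalized (middle) and median-centred (right); dotted lines are the medians of all genes in each genotype. As deposited 3 points, all WT, lie above 0, whereas with median centring all 20 do.

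The UVB response was lower in KO-labelled than in WT cells for 8 of the 9 members above the floor on every array. The difference of the responses had a median of -0.39 on the log2 scale for the members and -0.08 for all genes. Most genes were thus below 0 too, and their 75th percentile was 0.15. By the brightest probe set the difference was -0.77 for Pcolce, -0.75 for Tagln, -0.64 for Col6a2, -0.02 for Col3a1 and 0.34 for Col5a1. With a UVB response of -0.62 for WT against 0.07 for KO-labelled cells, the dimmer Pcolce probe set went the opposite way. For Postn, at -0.17 with its irradiated WT value raised to the floor, the sign depends on the setting: it was 0.62 after quantile normalization and 0.56 after median centring. With probe sets averaged, Col1a1 had the lowest value, -0.86. The members' median was -0.45 after quantile normalization and -0.33 after median centring, where 2 and 3 members lay above 0. This difference uses all 4 arrays and has no test.

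Other collagens and the matrix around them were compared by lists. Of 3 other fibrillar collagens at or above the floor, Col5a2, a partner chain of Col5a1, read 342.6 and 262.3 units in WT cells without and with UVB, and 702.6 and 471.1 in KO-labelled cells. Col27a1 read 159.0 and 48.8 units in WT and 326.1 and 108.4 in KO-labelled cells. Both were 2.05-fold higher in unirradiated KO-labelled cells and passed the limma genotype fit (adjusted p = 0.00995 and 0.0225), while Col5a3 read 29.5 and 41.1 units in WT and KO-labelled unirradiated cells. Among 6 other interstitial collagens 0 passed it, although 5 were above 0, and above the median of all genes, without irradiation, with a median of 0.48. After UVB 5 were above 0, with a median of 0.36. Col8a1 and Col12a1, of a short-chain and of a fibril-associated collagen, were 1.45-fold and 1.42-fold higher without irradiation. Col6a3, another chain of type VI collagen, read 186.3 and 186.2 units in WT and 396.9 and 243.0 in KO-labelled cells. Of 7 basement membrane and epithelial collagens 1 passed as higher, Col4a1 of type IV collagen, with a log2 difference of 0.86 without irradiation; Col4a2 and Col4a6 had differences of 0.57 and 0.74. The list's median was 0.18, and Col17a1, the hemidesmosomal collagen of keratinocytes, read 4636 units in WT and 3794 in KO-labelled unirradiated cells.

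Collagen synthesis enzymes and chaperones differed less than the members. Of 18 tested, 17 were above 0 in unirradiated KO-labelled cells and 0 reached 2-fold, with a median log2 difference of 0.40, and 0 passed the limma genotype fit. Against the median of all genes, 14 of the 18 were above it. After UVB 12 were above 0, with a median of 0.099, where all genes had a median of 0.05. Lox and Loxl1, which cross-link collagen, read 373.0 and 126.3 units in unirradiated KO-labelled cells against 225.5 and 75.3 in WT cells. Plod3, a lysyl hydroxylase gene, had a log2 difference of 0.54. Of 20 proteoglycans and matrix glycoproteins, 18 were above 0 with a median of 0.61, and 5 passed as higher: Sparc, Fn1, Fbln5, Efemp1 and Tgfbi. Above the median of all genes were 17 of the 20. After UVB 14 were above 0, with a median of 0.46. Sparc, which encodes a collagen-binding protein, read 668.0 and 686.0 units in WT and 1434 and 924.4 in KO-labelled cells, without and with UVB. The fibulin gene Fbln5 was 2.20-fold higher in unirradiated KO-labelled cells. Ccn2, a matricellular growth factor gene, was 2.07-fold higher without irradiation but read 512.0 units in KO-labelled and 598.3 in WT cells after UVB. Thbs1, of the matricellular protein thrombospondin, fell after UVB by the limma fit under all 3 scalings (adjusted p = 3.65e-06 as deposited), from 1396 to 337.7 units in WT cells.

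**Figure D5:**
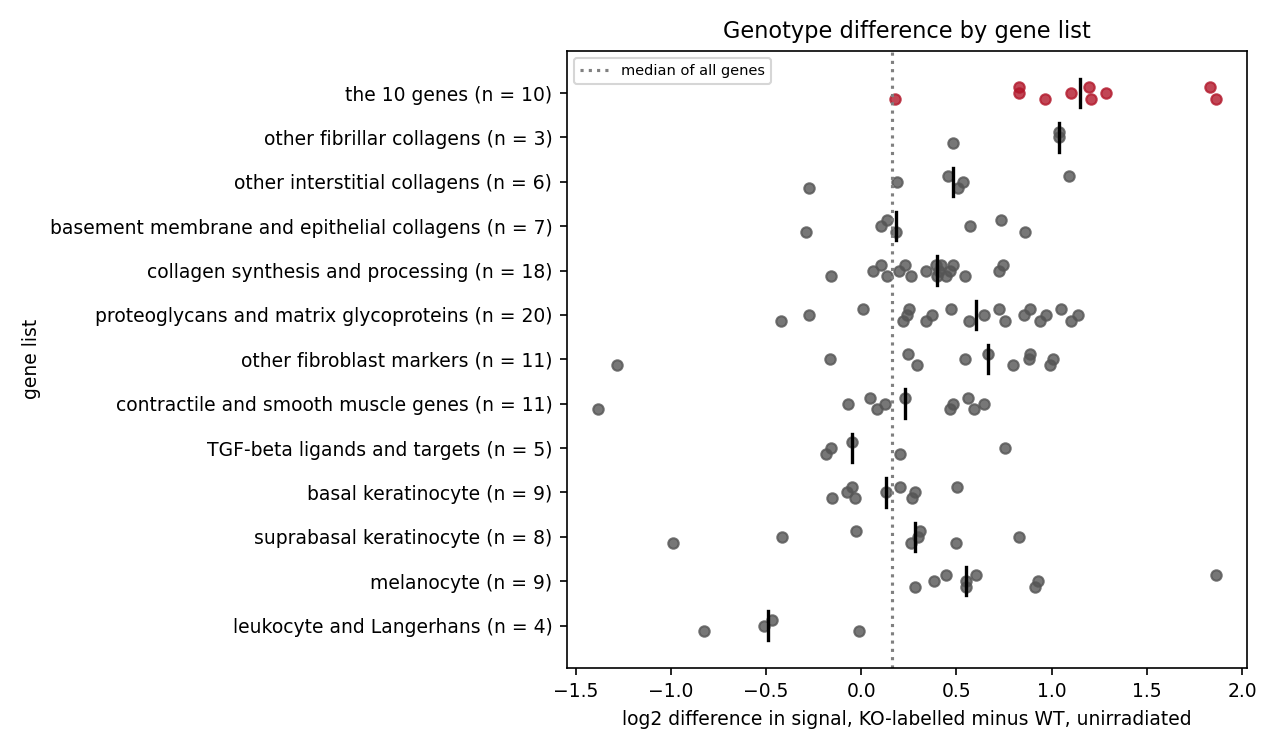
Log2 difference in signal between KO-labelled and WT unirradiated cells (x axis) for single genes (points) in the 10 genes and in 12 gene lists (y axis, with the number of genes at or above the floor); black bars are list medians and the dotted line is the median of all genes. The medians of the 10 genes and of the other fibrillar collagens, 1.15 and 1.04, are the highest shown, and that of leukocyte markers, -0.49, the lowest.

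Not every fibroblast or contractile marker was higher. Of 11 other fibroblast markers tested, 9 were above 0, and above the median of all genes, in unirradiated KO-labelled cells. Their median was 0.67, the value of Twist2, which was below the floor on both irradiated arrays. After UVB 7 were above 0, with a median of 0.15, where genes below the floor on both arrays count as 0. Vim, the vimentin gene, passed the limma fit as higher, and Pdpn, the podoplanin gene, which wound-edge keratinocytes also express, passed as lower. Pdpn in WT cells read 1183 units without and 1033 with UVB, against 486.5 and 366.9 in KO-labelled cells. Pdgfrb, a growth factor receptor of mesenchymal cells, read 53.2 and 32.6 units in WT and 105.9 and 46.0 in KO-labelled cells, while Pdgfra read 109.1 and 97.2 units in unirradiated WT and KO-labelled cells. Lrig1, also a marker of epidermal stem cells, read 285.1 and 526.7 units in the same samples. Dcn, the decorin gene of dermal fibroblasts, read 93.6 and 94.0 units without irradiation but 64.6 in WT and 117.1 in KO-labelled cells after UVB, which is 1.81-fold, and Fap was below the floor on all arrays. Of 11 contractile genes 1 passed as higher, Acta2, the smooth muscle actin gene, at 4387 and 3457 units in WT and 6612 and 5529 in KO-labelled cells, and Cnn1, Myh11 and Lmod1 of mature smooth muscle were below the floor on all arrays. Actg2 and Myl9 had log2 differences of 0.64 and 0.56 without irradiation. Des, the desmin gene, went the other way without irradiation, from 65.0 units in WT to 11.2, below the floor, in KO-labelled cells, at least 2.61-fold lower, but read 33.1 and 35.7 units after UVB.

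Of 5 TGF-beta ligands and targets 0 passed the limma genotype fit, with a median of -0.05 without irradiation. Ltbp1, which encodes a TGF-beta-binding matrix protein, had a difference of 0.76, Tgfb1 of 0.20 and Skil of -0.18. Skil, an inhibitor of TGF-beta signalling, fell after UVB by the limma fit under all 3 scalings (adjusted p = 5.57e-06 as deposited).

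Markers of keratinocytes and of other cell types were set beside these values. Of 12 fibroblast markers, 4 are members (Col1a1, Col1a2, Col3a1 and Thy1). The other 8 summed to 1238 units without and 923.9 with UVB in WT cells, and to 2047 and 1483 in KO-labelled cells, most of it from Vim. Without Vim, the sums were 376.0 and 175.2 units in WT and 462.2 and 270.8 in KO-labelled cells. Of the 7 of these 8 that were tested, 6 were above 0 without irradiation, with a median log2 difference of 0.37, and 1, Vim, passed the limma genotype fit as higher. The summed signal of 9 basal keratinocyte markers was 40115 and 31828 units in WT and 40704 and 32634 in KO-labelled cells, so the labelled cell type was present on every array, and 0 of the 9 passed the limma genotype fit. Most of that sum came from Krt5 and Krt14. Without irradiation they read 13795 and 12588 units in WT and 13104 and 12320 in KO-labelled cells. Krt15, Lamb3 and Lama3 had differences of 0.28, 0.51 and 0.27 without irradiation, and Trp63 fell after UVB by the limma fit under all 3 scalings (adjusted p = 2.37e-06 as deposited). Melanocyte markers moved in the same direction as the members without irradiation: 9 of 9 were above 0, with a median of 0.55 and sums of 6287 units in WT and 8859 in KO-labelled cells, and 0 passed the limma fit. All 9 were above the median of all genes. After UVB 7 of 9 were above 0, with a median of 0.26. Kit, a receptor of melanocytes, read 30.8 units in WT and 112.1 in KO-labelled unirradiated cells and was below the floor in both after UVB, while Tyr and Sox10 had differences of 0.93 and 0.91 without irradiation. Of 2 Sox10 probe sets at or above the floor, only 1 was higher in KO-labelled cells without irradiation. After UVB the brightest read 62.4 units in WT and 50.3 in KO-labelled cells. Of 8 suprabasal markers 2 passed as higher, Krt1 and Krt10, and 2 as lower, Lor and Sbsn. The part of these cell types in the members' difference was not tested.

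Most markers of blood, vessel and nerve cells were below the floor. All 7 endothelial markers had a mean below it, with sums of 55.1 to 95.9 units, as had all 3 Schwann cell markers. Of 8 leukocyte markers, Ptprc, Cd3e, Cd207 and Tyrobp were below it on every array, and the 4 tested had differences below 0 without irradiation. Cd68, a lysosomal protein gene of macrophages, was well above the floor, at 383.2 and 480.0 units in WT and 268.6 and 298.4 in KO-labelled cells, and Laptm5 read 47.9 and 47.5 units in the unirradiated samples. Skeletal muscle markers summed to 184.6 to 255.8 units, and the 3 tested, Acta1, Ckm and Mylpf, had differences of 0.33, 0.23 and -0.01. Of 5 pericyte markers 2 were tested, with a median of 0.67, and Rgs5, Notch3 and the others summed to 195.6 units in WT and 262.8 in KO-labelled unirradiated cells. Of the adipocyte markers, Adipoq and Pparg were below the floor and Lpl, which keratinocyte cultures and mesenchymal cells can express, was 1.37-fold higher without irradiation. It was 1.62-fold higher after UVB and passed the limma genotype fit as higher, with a log2 difference of 0.57.

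The genes with the most similar pattern over the 4 arrays were Fbln5, Serpinf1, Cfap126, Epb41l3 and Sorl1. Likeness was the root mean square distance, in log2 units, between a gene's centred signal and the mean centred signal of the 9 members at or above the floor on all arrays, over 9488 genes, and it was 0.020 for Fbln5 and 0.047 for Sorl1. Serpinf1, which encodes a secreted serpin, read 117.6 and 101.9 units in WT cells without and with UVB, and 249.2 and 173.7 in KO-labelled cells. Of the members, Col1a1 lay closest to the mean pattern, at 0.055, and Col5a1 farthest, at 0.42. With 4 arrays the pattern has few degrees of freedom and is a description.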

How the data were processed

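RNA was measured on 4 expression arrays, 1 per group. Per the labels' protocols, Trizol RNA was cleaned on columns and labelled with biotin by 3′ in vitro transcription; per the submitters' processing notes the deposited intensity values are MAS5 signals. For the scaling target, the sources used here give nothing. Groups came from the sample titles. Probe sets were named by the platform annotation, and 34741 of 34945 with 1 symbol were found by gene ID in RefSeq. From the intensities, log2 differences were computed after raising values to the floor, and limma 3.58.1 in R 4.3.3 fitted irradiation and genotype across all 11379 genes, after being tested on simulated data. Alternatives were 2 other scalings, floors at the 25th and 75th percentile, other probe set choices, 1.5-fold and 3-fold thresholds and other fits. Named genes were all members, the 5 most similar genes and, for each list, the 3 largest unirradiated genotype differences and 2 largest mean UVB responses among genes with those arrays at or above the floor (not every UVB response is printed); Dcn, Des, Fap, genes below the floor and list members that passed limma were named after their values were seen. The members and lists were chosen with earlier results of these data known. Nothing shows separate cultures behind a group, and the number of arrays limits precision.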

Additional observations from a re-analysis of the deposited data

Results flagged for a closer look

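As deposited, the UVB responses of 3 members had opposite signs in the 2 genotypes, with 1 array behind each value, and the difference was not tested. Pcolce was 0.31 higher after UVB in WT and 0.46 lower in KO-labelled cells on the log2 scale, a difference of the responses of -0.77. Tagln was 0.35 higher and 0.39 lower, a difference of -0.75. Thy1 was 0.10 higher and 0.29 lower, a difference of -0.38. After quantile normalization and after median centring all 3 were higher after UVB in both genotypes, and the differences were -0.71 and -0.71 for Pcolce, -0.86 and -0.69 for Tagln and -0.45 and -0.32 for Thy1. The dimmer Pcolce probe set went the other way, from 73.1 to 47.4 units in WT and from 83.6 to 88.0 in KO-labelled cells.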

How the results depend on the processing

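All alternatives ran. The genotype median of the members stayed above 0 under each, as did all members' genotype differences under both other scalings. Of 6 members at least 2-fold higher without irradiation, 2 remained at 3-fold, against 0.114% of all genes. At 1.5-fold 9 members and 8.74% of all genes counted. The count was 4 with the mean over probe sets, 5 with median centring and 5 with the 75th percentile floor. Of all genes, 0.844%, 0.504% and 0.470% counted there. It stayed 6 with quantile normalization and with the 25th percentile floor, where 0.541% and 6.22% of all genes counted. After UVB the count of 2 became 1 with quantile normalization, with the floor at the 75th percentile and with the mean over probe sets, 8 at 1.5-fold and 0 at 3-fold; it was 3 with the 25th percentile floor. Of all genes, 2.21% counted with quantile normalization, 0.323% with the 75th percentile floor and 0.703% with the mean over probe sets. At 1.5-fold and 3-fold 8.14% and 0.123% did, and 4.27% with the 25th percentile floor. The 1 member at least 2-fold lower after UVB in WT cells became 0 with quantile normalization, median centring, the 75th percentile floor, the mean over probe sets and 3-fold, and the 0 of KO-labelled cells became 4 at 1.5-fold, where 65.1% of all genes counted. For the WT count, the shares of all genes were 9.48%, 7.41%, 27.3%, 25.1% and 14.9% in the order given. By limma the 8 members higher by genotype became 0 with the mean over probe sets, without the intensity trend and with only the tested factor, where 0 of all genes passed and 10, 9 and 1 members passed unadjusted; the cause was not tested. The count was 6 with quantile normalization and 7 with centring and with the 75th percentile floor, where 0.768%, 0.725% and 3.04% of all genes passed as higher.

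The UVB direction turned with scaling. Quantile normalization and median centring gave members' medians of 0.59 and 0.76 in WT and 0.28 and 0.61 in KO-labelled cells. The limma count of 5 members lower became 0 and 0, and 1 with only the tested factor, where 20.0%, 15.1% and 59.3% of all genes passed as lower. With quantile normalization and with centring the limma effects became 0.52 and 0.78 for Col1a1, 0.044 and 0.48 for Col1a2, 0.040 and 0.595 for Col3a1, 0.19 and 0.25 for Col5a1, 0.37 and 0.58 for Col6a1, 0.36 and 0.57 for Col6a2, 0.97 and 1.03 for Pcolce, 0.77 and 1.004 for Thy1 and 0.70 and 1.08 for Tagln. Centring also gave Col5a1 a WT response of 0.048. These scalings shift every value of an array; which one is right was not tested. Over these and the other alternatives, the genotype differences changed sign in 0 of 59 values in each condition. The UVB responses changed sign in 15 of 59 in WT and 19 of 59 in KO-labelled cells, 13 and 19 of these by scaling. Many of the 59 values could not change. No member's brightest probe set had a suffix marking possible cross-hybridisation, so leaving such probe sets out repeated every member value. Lowering the floor moved only values of Postn, and averaging probe sets left Col6a1, Thy1, Tagln and Postn as they were. The 59 values are thus not 59 separate checks of the sign. The floor limits Postn, and at the 75th percentile also Pcolce, whose unirradiated and UVB genotype differences came to 0.81 and 0.35, and Col5a1, with 0.29 after UVB; without replicates no spread between cultures is known.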
